A study of Mus musculus with 6 samples.

Results

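The genes described here are 37 lipid genes of squamous epithelium, chosen by name: enzymes of the skin barrier, enzymes and storage proteins of the sebaceous gland, and enzymes and transcription factors of sterol synthesis. They are 37 of the 24063 gene symbols measured, and all 37 were among the 16336 genes that passed the filter on low counts. RNA sequencing compared penile tumors of 3 SA mice (PB-Cre+ Smad4L/L ApcL/L) with normal penile epithelium of 3 wild type (WT) C57BL/6 mice, all 5 months old, 1 library per mouse. In SA mice the tumor suppressor genes Smad4 and Apc carry loxP sites, and a Cre recombinase driven by the probasin promoter deletes both in epithelial cells that respond to androgen, while other cells of the tumor keep the genes. The tumors arose without any carcinogen. The labels name the strain of the WT mice only, so that strain and genotype cannot be told apart where strains differ in the expression of a gene. Because the samples are separate mice, the p-values below measure the spread between mice.

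Stratified epithelium keeps water in with a lipid seal made by its outermost living cells. Serine palmitoyltransferase starts the sphingoid backbone, ceramide synthases attach a fatty acid made long by ELOVL elongases, and desaturases or hydroxylases finish the ceramide. A special class, the acylceramides, carries linoleate on the end of the very long fatty acid, and ABCA12 loads such lipids into lamellar granules for export. Sebaceous glands, and the preputial and other glands of the same kind near the penis, fill their cells with triacylglycerol and wax esters under the nuclear receptor PPAR gamma, and then burst. Cholesterol synthesis is driven by SREBP-2 and fatty acid synthesis by SREBP-1c, and sterols hold back the processing of SREBP.

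The gene rows held 23828283 to 32871142 counts in 5 libraries and 110509147 counts in the third SA tumor. Levels are given as CPM, counts scaled to a common library size by TMM, and a value after ± is the SD over the 3 mice of a group. Differences are log2 values of SA tumors against WT penises from the edgeR fit, with their standard error (SE). At these depths 3 counts, taken as the smallest number that the depth can show, equal 0.0244 to 0.137 CPM. Smad4 was at 36.6, 36.1 and 46.1 CPM in the SA tumors and at 61.2, 69.7 and 72.5 in the WT samples, and fell by 0.77 on the log2 scale (edgeR adjusted p = 0.00114). Apc was higher in SA tumors, at 253, 194 and 197 CPM against 62.5, 85.3 and 91.1. Both values are counts over the whole transcript, which also takes reads from exons outside a deletion, so that the Apc row gives no check of the labels. Keratinocyte markers were abundant in all 6 libraries, with Krt5 at 3071 CPM or more and Krt14 at 5072 CPM or more.

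A gene is said to have risen or fallen at an adjusted p-value under 0.01 in edgeR's quasi-likelihood F-test over all 16336 genes. By this rule 10 of the 37 lipid genes rose and 10 fell in SA tumors, against 20.1% of all genes tested that rose and 17.5% that fell. At a fold change of at least 4 in addition, Fabp4, Elovl3, Degs2 and Pparg rose and no lipid gene fell, against 9.41% and 3.59% of all genes. Of these, Elovl3 passed the filter on low counts through its tumor counts only. The median log2 difference was 0.02 over the 37 genes and 0.03 over all genes. The set as a whole thus did not move one way. All 3 genes of PPAR gamma and the fatty acid binding proteins rose, as did both desaturases. Of the 6 elongases 3 fell and 1 rose, of the 4 acylceramide genes 2 fell, and none of the 4 sterol and SREBP genes passed the test. In whole tissue, fewer cells of a type and less RNA per cell cannot be told apart, which holds for every difference below. With 1 library left out at a time, 8 to 10 of the lipid genes rose and 9 to 12 fell.

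**Figure D1:**
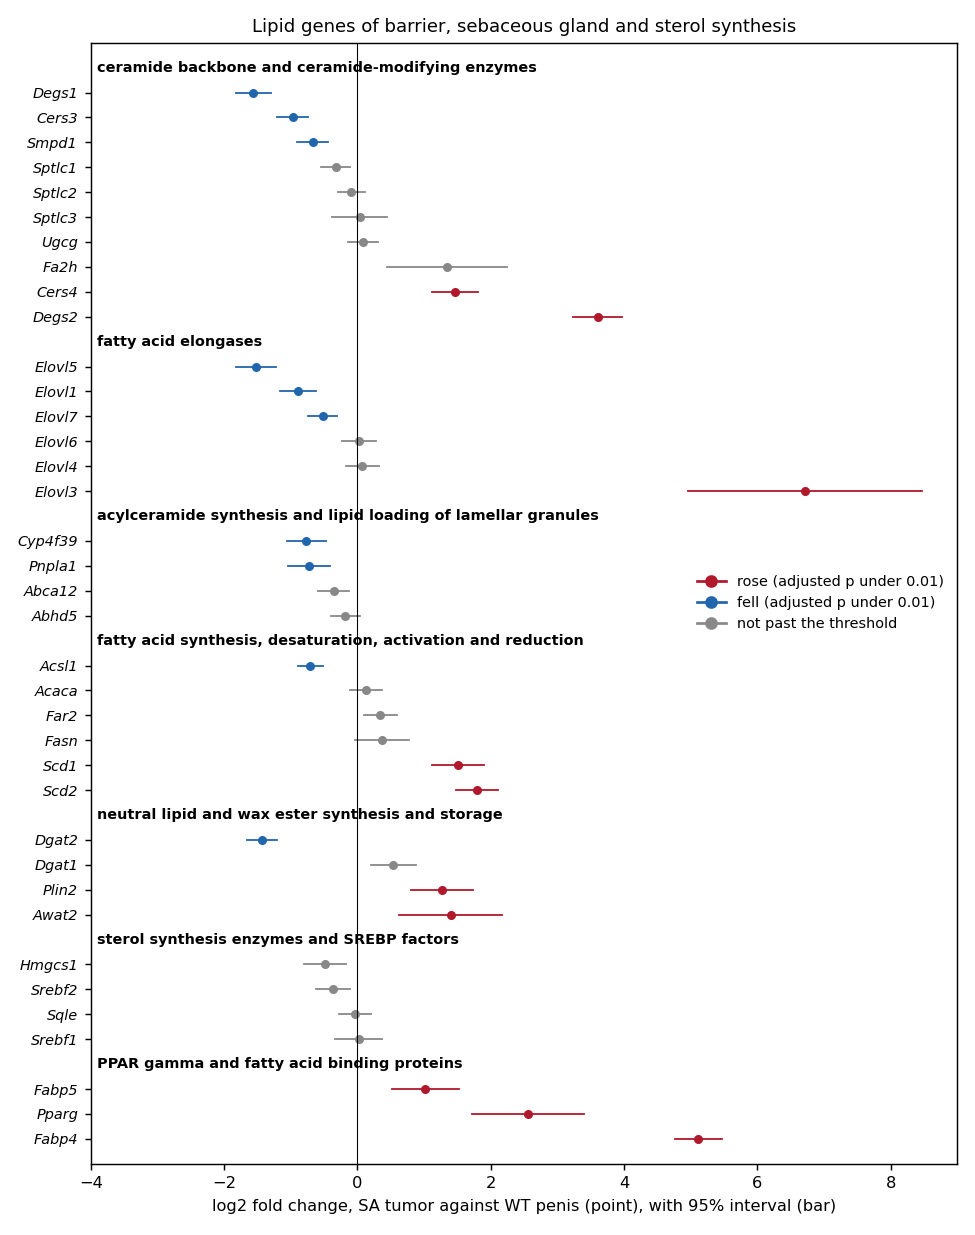
Log2 fold change of each of the 37 lipid genes in SA tumors (n = 3) against WT penises (n = 3), grouped by role, with the 95% interval of the edgeR fit as a bar and the call by color. The ceramide backbone and elongase groups hold genes on both sides of 0, the 4 acylceramide genes all lie below 0, and the values run from -1.56 for Degs1 to 6.71 for Elovl3.

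Among the 10 genes of the ceramide backbone, 2 rose, 3 fell and 5 did not pass the test. The sharpest contrast was between the dihydroceramide desaturases. Degs1 encodes the widely expressed enzyme that turns dihydroceramide into ceramide, and Degs2 encodes a bifunctional relative that also hydroxylates, making phytoceramide. Degs1 (NM_007853, chromosome 1, 182275964 to 182282854) was at 127, 139 and 160 CPM in the SA tumors and at 437, 417 and 403 in the WT samples. Every tumor was below every WT sample, and the gene fell by 1.56 on the log2 scale (SE 0.113, edgeR adjusted p = 1.47e-05). Degs2 (NM_001171002, chromosome 12, 108686792 to 108702306) was at 36.7, 38.4 and 29.8 CPM in the tumors and at 3.21, 2.60 and 2.82 in the WT samples. Its mean rose from 2.88 ± 0.307 to 35.0 ± 4.58 CPM, a 12.2-fold difference (log2 difference 3.60, SE 0.162, edgeR adjusted p = 2.11e-06), with no overlap between groups.

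The Degs2 count came from its transcript row with more counts. Exons of Degs2 share 278 bases with exons of Evl on the opposite strand, and which row holds these bases was not determined. The libraries are stranded, but the strand setting of the count is not given in the sources used here, so reads from Evl could be among the counts of Degs2. The other Degs2 row, NM_027299, held 695, 918 and 2587 counts in the tumors and 18, 22 and 15 in the WT samples. Its log2 difference was 5.11 (SE 0.214, edgeR adjusted p = 1.15e-06) in a fit of all transcript rows, chosen after the rows had been seen. As a share of the row with more counts it held 70.3% to 79.1% in the tumors and 24.2% to 28.2% in the WT samples, so the difference between groups was larger in the row with fewer counts.

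The ceramide synthases showed a similar pair. Cers3, which uses the very long fatty acids of the skin barrier, was at 98.0, 91.9 and 86.8 CPM in the tumors and at 193, 184 and 164 in the WT samples. It fell by 0.97 on the log2 scale (SE 0.101, edgeR adjusted p = 9.36e-05). Cers4, which uses shorter chains and is known from hair follicle and sebaceous gland, was at 77.0, 79.9 and 55.5 CPM in the tumors and at 26.9, 25.7 and 24.3 in the WT samples. Its log2 difference was 1.46 (SE 0.149, edgeR adjusted p = 8.65e-05), and neither gene overlapped between groups.

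For these opposed pairs the RefSeq promoters (mouse GRCm38.p6, 250 bases before to 50 after the start that the table gives) are shown 5′ to 3′ on the strand of the gene. The start lies inside the gene for Degs1, Cers3 and Cers4. Capitals mark matches, on either strand, to the motifs described with the promoter counts further on: an E-box in Degs1, 5 GC boxes in Degs2, and a GC box and a TCF/LEF motif in Cers4. The Cers3 window holds none of them.
Degs1, chr1:182282146-182282445, minus strand: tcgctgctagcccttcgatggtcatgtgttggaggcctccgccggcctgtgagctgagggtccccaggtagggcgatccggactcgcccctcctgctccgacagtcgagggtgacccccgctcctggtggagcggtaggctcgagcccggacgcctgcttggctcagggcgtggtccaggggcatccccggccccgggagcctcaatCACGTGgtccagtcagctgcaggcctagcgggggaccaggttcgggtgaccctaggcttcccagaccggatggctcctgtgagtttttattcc
Degs2, chr12:108702257-108702556, minus strand: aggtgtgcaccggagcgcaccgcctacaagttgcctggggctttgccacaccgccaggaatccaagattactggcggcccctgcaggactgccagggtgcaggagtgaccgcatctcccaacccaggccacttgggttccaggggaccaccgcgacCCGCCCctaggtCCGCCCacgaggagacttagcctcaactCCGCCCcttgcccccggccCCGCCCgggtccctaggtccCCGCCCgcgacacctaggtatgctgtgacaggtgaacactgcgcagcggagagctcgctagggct
Cers3, chr7:66743254-66743553, plus strand: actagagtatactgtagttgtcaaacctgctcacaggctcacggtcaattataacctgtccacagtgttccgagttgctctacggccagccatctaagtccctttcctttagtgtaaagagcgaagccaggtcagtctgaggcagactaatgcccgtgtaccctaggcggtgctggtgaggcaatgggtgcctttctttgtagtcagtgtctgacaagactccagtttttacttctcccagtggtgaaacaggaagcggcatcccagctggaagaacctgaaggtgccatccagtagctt
Cers4, chr8:4493155-4493454, plus strand: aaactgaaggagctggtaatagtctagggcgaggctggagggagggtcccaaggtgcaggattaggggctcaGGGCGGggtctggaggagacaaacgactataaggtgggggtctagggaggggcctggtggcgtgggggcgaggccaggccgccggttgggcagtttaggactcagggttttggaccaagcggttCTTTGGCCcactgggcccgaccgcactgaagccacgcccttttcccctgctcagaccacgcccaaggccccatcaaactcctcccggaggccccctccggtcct

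The first step of the backbone is made by serine palmitoyltransferase. Its large subunits Sptlc1, Sptlc2 and Sptlc3 had log2 differences of -0.32, -0.09 and 0.04, and none passed the test, whereas Sptssb, a small subunit that is not among the 37 genes, fell by 2.18 (edgeR adjusted p = 2.36e-06). For Sptlc2, the 95% interval from -0.30 to 0.12 leaves out a change of 1 on the log2 scale in either direction. Ugcg, which makes glucosylceramide for transport to the surface, was at 128 ± 2.45 CPM in tumors and 121 ± 11.7 in the WT group, a log2 difference of 0.08 (95% interval -0.14 to 0.31). Smpd1, the acid sphingomyelinase that releases ceramide from sphingomyelin, fell by 0.67 on the log2 scale (edgeR adjusted p = 0.000753), from 180 ± 13.6 to 113 ± 8.52 CPM. Fa2h, which adds a hydroxyl group to the fatty acid, was at 5.98, 10.5 and 3.96 CPM in the tumors and at 1.90, 2.57 and 3.51 in the WT samples. All 3 tumors were above all WT samples, but the spread among tumors was wide and the log2 difference of 1.34 missed the threshold (edgeR adjusted p = 0.0192). Without the third SA tumor its adjusted p was 0.00373.

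Of the 6 elongases, which lengthen fatty acids of different chain length and saturation, 3 fell, Elovl3 rose, and Elovl4 and Elovl6 did not pass the test. Elovl5, the elongase of polyunsaturated fatty acids, was at 43.3, 43.3 and 57.1 CPM in the tumors and at 130, 141 and 144 in the WT samples. It fell by 1.53 on the log2 scale (SE 0.130, edgeR adjusted p = 3.34e-05). Elovl1, which makes the saturated very long chains of sphingolipids, fell by 0.90 (edgeR adjusted p = 0.000326), and Elovl7 by 0.52 (edgeR adjusted p = 0.00202). Groups did not overlap for either gene. Without the second WT sample the adjusted p of Elovl7 was 0.0116. Elovl4, whose product is the ultra-long chain of acylceramides, was at 218 ± 26.5 CPM in tumors and 207 ± 3.46 in the WT group, a log2 difference of 0.07 with a 95% interval from -0.18 to 0.33. Elovl6, which extends the product of fatty acid synthase, had a log2 difference of 0.02 (95% interval -0.23 to 0.27).

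Elovl3, an elongase of sebaceous gland and brown fat, had almost no counts in normal tissue. It had 36, 77 and 167 counts in the SA tumors, or 1.34, 2.55 and 1.36 CPM, and 1, 0 and 0 counts in the WT samples. Summed over samples the ratio of SA tumors to WT penises, corrected for library size, was 115 with an exact 95% interval from 20.5 to 4558 that covers counting error only. The edgeR test gave an adjusted p of 0.000158. Elovl3 passed the filter on low counts through its tumor counts only, so that this p is given as a description and not as support. Its fitted log2 difference of 6.71 depends on how the zeros are handled.

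Of the 4 genes of acylceramide synthesis and granule loading, 2 fell and none rose. Cyp4f39, which hydroxylates the end of the ultra-long fatty acid, was at 93.7, 113 and 82.4 CPM in the tumors and at 171, 165 and 156 in the WT samples, and fell by 0.77 on the log2 scale (SE 0.126, edgeR adjusted p = 0.00112). Pnpla1, the transacylase that adds linoleate at that end, was at 56.2, 64.8 and 44.5 CPM against 90.9, 90.9 and 91.7, and fell by 0.73 (SE 0.137, edgeR adjusted p = 0.00234). Tumors were below WT samples throughout for both. Abhd5, a cofactor of PNPLA lipases, had a log2 difference of -0.18 (edgeR adjusted p = 0.143), and Abca12 of -0.36 (edgeR adjusted p = 0.0183), with all tumors below all WT samples. The adjusted p of Abca12 was 0.00911 without the first WT sample. The GENCODE annotation places Pnpla1os on the strand opposite to Pnpla1, with 644 shared exon bases.

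In fatty acid synthesis the desaturases rose while the synthesis enzymes themselves did not pass the test. Scd2 and Scd1 encode stearoyl-CoA desaturases, which make the monounsaturated fatty acids of triacylglycerol, wax and membrane lipids. Scd2 (NM_009128, chromosome 19, 44293676 to 44306864) was at 1048, 958 and 782 CPM in the tumors and at 243, 289 and 272 in the WT samples. Its mean of 929 ± 136 CPM in tumors, with 268 ± 23.3 in the WT group, was the highest of the 37 genes in tumors on this scale. The 3.47-fold difference (log2 difference 1.79, SE 0.138, edgeR adjusted p = 2.00e-05) was below the 4-fold limit. Scd1 (NM_009127, chromosome 19, 44394450 to 44407709) was at 167, 225 and 141 CPM in the tumors and at 68.6, 59.2 and 60.0 in the WT samples, a log2 difference of 1.51 (SE 0.170, edgeR adjusted p = 0.000153). Neither gene overlapped between groups.

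Acaca, the acetyl-CoA carboxylase that makes malonyl-CoA, was at 86.7 ± 7.07 CPM in tumors and 79.5 ± 6.46 in the WT group, a log2 difference of 0.13 (95% interval -0.12 to 0.37). Fasn, the fatty acid synthase, was at 472, 487 and 340 CPM in the tumors and at 268, 357 and 380 in the WT samples. The groups overlapped, and the log2 difference of 0.37 did not pass the test (edgeR adjusted p = 0.112). Acsl1, which activates long-chain fatty acids with coenzyme A, fell by 0.70 on the log2 scale (SE 0.0843, edgeR adjusted p = 0.000204), from 221 ± 7.41 to 136 ± 1.50 CPM. Far2, a reductase that makes the fatty alcohols of wax, had a log2 difference of 0.34 (edgeR adjusted p = 0.0289), and it shares 837 exon bases with Ergic2 on the opposite strand.

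The last step of triacylglycerol synthesis is carried out by unrelated enzymes, and only Dgat2 fell. Dgat2 (NM_026384, chromosome 7, 99153663 to 99182713) was at 93.5, 107 and 97.7 CPM in the tumors and at 284, 265 and 255 in the WT samples, and fell by 1.43 on the log2 scale (SE 0.0978, edgeR adjusted p = 1.11e-05). Dgat1 was at 24.8, 26.5 and 34.8 CPM against 20.2, 19.0 and 20.3. All tumors were above all WT samples for Dgat1, but its log2 difference of 0.54 missed the threshold (edgeR adjusted p = 0.0149), which it passed without the first SA tumor (edgeR adjusted p = 0.00801).

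Plin2, the coat protein of lipid droplets in most cells, was at 29.0, 38.1 and 48.9 CPM in the tumors and at 18.8, 15.2 and 14.3 in the WT samples, a log2 difference of 1.27 (SE 0.201, edgeR adjusted p = 0.000946). Awat2, a wax synthase of the sebaceous gland, had 37, 67 and 200 counts in the tumors and 10, 23 and 16 in the WT samples. At 1.74 ± 0.433 against 0.650 ± 0.172 CPM it was among the scarcest genes of the group, and its log2 difference of 1.40 just passed the test (edgeR adjusted p = 0.00802). With 1 library left out it passed without the first tumor only, and the adjusted p was 0.0117 to 0.0340 in the other 5 fits.

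None of the 4 genes of sterol synthesis and SREBP passed the test. Hmgcs1, which makes HMG-CoA at the start of the mevalonate pathway, was at 296, 284 and 240 CPM in the tumors and at 331, 376 and 446 in the WT samples. Every tumor was below every WT sample, and the log2 difference of -0.49 missed the threshold (edgeR adjusted p = 0.0164), which it passed without the first WT sample (adjusted p = 0.00987). Sqle, the squalene epoxidase, was at 145 ± 14.5 CPM in tumors and 149 ± 9.01 in the WT group, a log2 difference of -0.04 with a 95% interval from -0.28 to 0.20. Srebf1, which encodes the SREBP-1 factors, was at 166, 220 and 142 CPM in the tumors and at 168, 177 and 175 in the WT samples. Its log2 difference was 0.02 (95% interval -0.33 to 0.37), with a wider spread in tumors. Srebf2, which encodes SREBP-2, had a log2 difference of -0.37 (95% interval -0.63 to -0.11, edgeR adjusted p = 0.0247), with all tumors below all WT samples.

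The nuclear receptor PPAR gamma and both fatty acid binding proteins rose. Pparg (NM_001127330, chromosome 6, 115360879 to 115490404) was at 5.46, 8.01 and 3.66 CPM in the tumors and at 1.27, 0.734 and 0.911 in the WT samples. Its log2 difference was 2.56 (SE 0.367, edgeR adjusted p = 0.000548), from 70 counts over the 3 WT samples. Fabp4, the fatty acid binding protein of adipocytes, capillary endothelium and macrophages and a target of PPAR gamma in fat, had the lowest adjusted p-value of the 37 genes. Fabp4 (NM_024406, chromosome 3, 10204342 to 10208616) was at 122, 132 and 125 CPM in the tumors and at 3.03, 3.44 and 4.46 in the WT samples. The mean rose 34.7-fold, from 3.64 ± 0.740 to 126 ± 5.27 CPM, with a log2 difference of 5.11 (SE 0.156, edgeR adjusted p = 6.54e-07).

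Fabp5, the epidermal fatty acid binding protein, lies on the same stretch of chromosome 3 (10012585 to 10016610) and was already abundant in normal tissue. It was at 949, 721 and 998 CPM in the tumors and at 568, 436 and 311 in the WT samples. The groups did not overlap, but WT samples spread widely, and the log2 difference of 1.02 (SE 0.221, edgeR adjusted p = 0.00496) passed the test in 2 of the 6 fits made with 1 library left out, those without the second tumor or the first WT sample. Its adjusted p was 0.0107 without the first tumor, 0.0131 without the third, 0.0249 without the second WT sample and 0.0106 without the third.

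**Figure D2:**
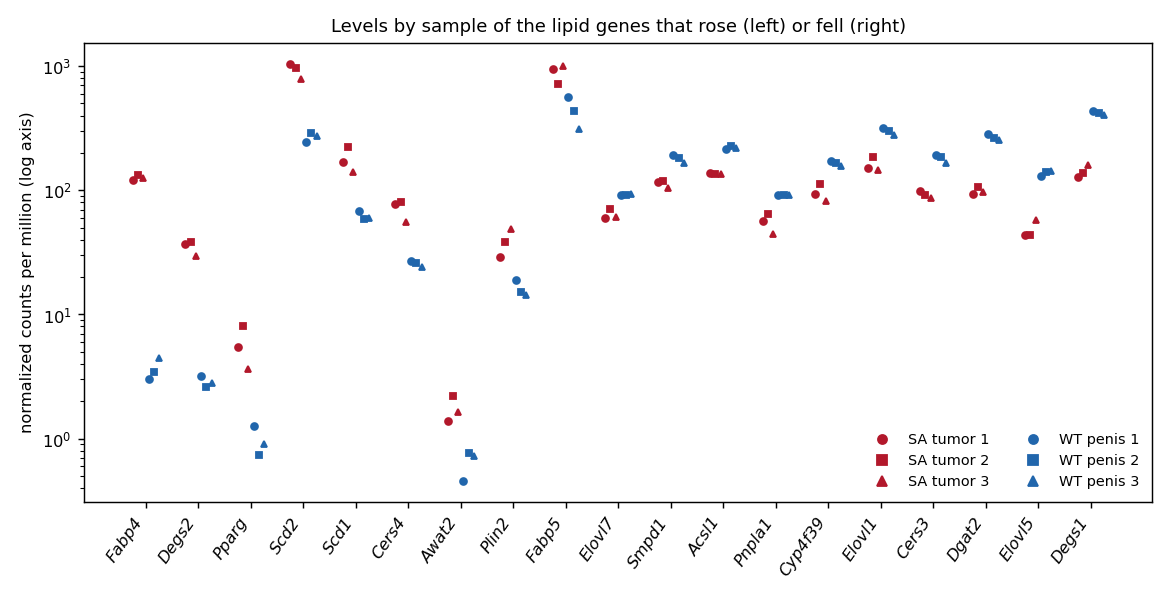
Normalized level (CPM) on a log axis of the lipid genes that rose or fell, in each of 3 SA tumors (red) and 3 WT penises (blue), ordered from the largest rise to the largest fall. Elovl3, with no counts in 2 WT samples, is left out. The genes shown were picked by the test, so that the lack of overlap between groups is no separate result. Fabp4 moves from 3.03 to 4.46 in WT penises to 122 to 132 in SA tumors.

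Tumors were not alike in these genes. The second SA tumor was the highest of the 3 for Fabp4, Elovl3, Degs2, Pparg, Scd1, Cers4 and Awat2, that is 7 of the 10 genes that rose. For the desaturase Scd2, the droplet protein Plin2 and Fabp5 the highest tumor was another one. The third tumor was the lowest of the 3 for Pparg, Degs2, Cers4, Scd1 and Scd2. As replicates have no order, this is a description of single libraries.

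On the deposited TPM scale, which divides by transcript length so that genes can be ranked within a sample, Fabp5 ranked first of the 37 genes in both groups, at 624 TPM in WT penises and 1662 in SA tumors. In WT penises Degs1, Elovl1 and Dgat2 followed, at 286, 225 and 163 TPM. In SA tumors the following genes were Fabp4, at 349 TPM, Scd2, at 302, and Elovl1, at 156. Fabp4 was thus 30th in WT penises and 2nd in tumors, and Degs1 moved from 2nd to 7th. Elovl3 and Awat2 were the lowest ranked in both groups.

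A ratio of related genes within a library does not depend on how libraries are scaled. The 9 pairs compared were made of genes read singly above, and pairs of other genes were not compared. A count over the 9 therefore has no background share beside it. Per transcript length, 7 of the 9 pairs did not overlap between groups. Each of these 7 had an exact permutation p of 0.10 (two-sided), the smallest that 3 samples against 3 can give, and 0.129 after adjustment over the 9 pairs, so that none can pass a threshold of 0.05. There were 215 to 253 Degs1 transcripts for each Degs2 transcript in WT penises and 5.49 to 8.53 in SA tumors, a mean difference of -5.16 on the log2 scale. The ratio of Cers3 to Cers4 was 7.62 to 8.12 in WT penises and 1.30 to 1.77 in tumors. Dgat1 stood at 0.0913 to 0.102 of Dgat2 in WT penises and at 0.317 to 0.458 in tumors.

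Fabp4 stood at 0.00799 to 0.0214 of Fabp5 in WT penises and at 0.186 to 0.272 in tumors. Elovl4 per Elovl1 was 0.391 to 0.430 in WT penises and 0.768 to 0.892 in tumors, so that the elongase of acylceramides gained on that of other long-chain sphingolipids, with a log2 difference of its own of 0.07. Scd1 per Scd2 (exact permutation p = 0.30) and Sptlc3 per Sptlc2 (p = 0.90 by the same exact test) overlapped between groups. Srebf1 per Srebf2 was 0.639 to 0.809 in tumors and 0.505 to 0.580 in WT penises, a small difference beside those of the desaturases.

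**Figure D3:**
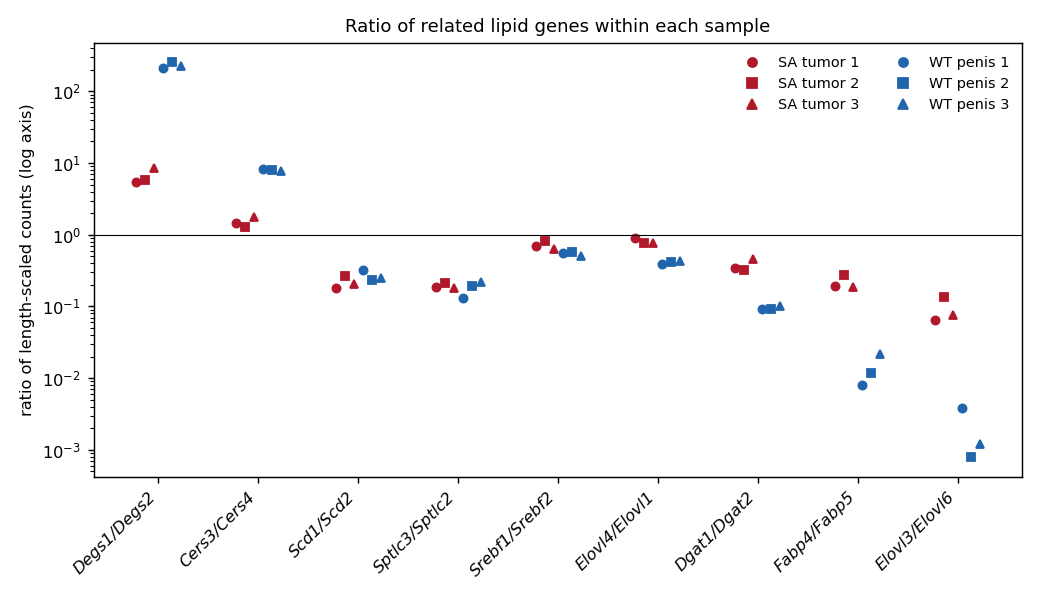
Ratio of length-scaled counts of related lipid genes within each of 3 SA tumors (red) and 3 WT penises (blue), on a log axis, ordered by the difference between groups. Degs1 to Degs2 is lower in every tumor (5.49 to 8.53 against 215 to 253), Elovl3 to Elovl6 is higher in every tumor, and the groups overlap for Scd1/Scd2 and Sptlc3/Sptlc2.

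The remaining genes of the same pathways were read as lists, beside the 20.1% of all genes tested that rose and the 17.5% that fell. Of 23 other genes of barrier ceramide synthesis and processing, 12 fell and 4 rose, with a median log2 difference of -0.54 against 0.03 over all genes. The largest fall was in Sptssb, a small subunit of serine palmitoyltransferase, from 165 ± 10.5 to 36.5 ± 2.56 CPM, or 2.18 on the log2 scale (edgeR adjusted p = 2.36e-06). The lipoxygenases that oxidize the linoleate of acylceramides also fell, Alox12b by 1.20 and Aloxe3 by 1.27, as did Sdr9c7 by 0.88, which acts after them. Acer1, a ceramidase, fell by 1.44. The 4 that rose were the ceramide synthase gene Cers6 (2.47), Lipn (2.32), Sgms2 (0.89) and Ptplad1 (0.60), a dehydratase of chain elongation also named Hacd3.

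Of 18 other enzymes of cholesterol synthesis, 3 rose, 4 fell and 11 did not pass the test, with a median of 0.09. The shares of 16.7% and 22.2% were near those of all genes tested, 20.1% and 17.5%. Those that rose were Hsd17b7 (1.33), Mvd (1.02) and Cyp51 (0.63), and those that fell were Pmvk (-1.42), Dhcr7 (-1.41), Fdft1 (-0.63) and Ebp (-0.53). Pmvk and Mvd, which act one after the other in the mevalonate pathway, went opposite ways. Dhcr7, which makes cholesterol from its direct precursor, was at 61.6, 71.9 and 60.4 CPM in the tumors and at 174, 171 and 171 in the WT samples.

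Of 8 genes of SREBP processing and sterol uptake, 2 rose and 1 fell, or 25.0% and 12.5% against 20.1% and 17.5% of all genes tested. Stard4, a carrier of cholesterol between membranes, rose by 1.43 on the log2 scale, and Insig2, which holds SREBP in the endoplasmic reticulum, fell by 0.62.

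Of 14 other genes of fatty acid and triacylglycerol synthesis, 11 were tested, 5 rose and Gpam fell, with a median of 0.57. These were 45.5% and 9.09% of those tested, against 20.1% and 17.5% of all genes tested. The genes that rose were the desaturase Scd3 (2.22), the transcription factor gene Mlxipl (1.50), the lipins Lpin2 (1.09) and Lpin1 (0.57), and malic enzyme, Me1 (0.88). Gpam, which adds the first fatty acid to glycerol phosphate, fell by 1.01 (edgeR adjusted p = 0.00152). Over the 75 genes of all these lists and of fatty acid oxidation together, 72 were tested, 16 rose (22.2%) and 20 fell (27.8%), with a median of 0.00.

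**Figure D4:**
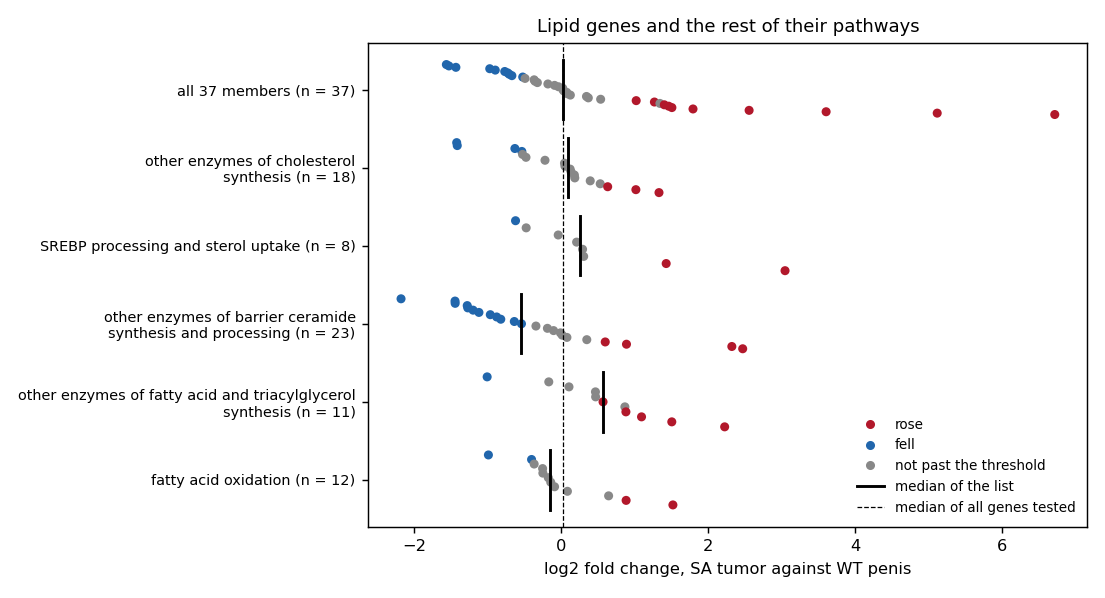
Log2 fold change in SA tumors against WT penises of the 37 lipid genes and of the other genes tested in 5 pathway lists, 1 point per gene, colored by call, with the median of each list as a thick line and that of all genes tested (0.03) as a dashed line. The list of barrier ceramide genes has its median at -0.54 and that of fatty acid and triacylglycerol synthesis at 0.57.

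Markers of some cell types also differed between the groups, while the sums of others overlapped. Beside each count of markers stand the 20.1% of all genes tested that rose and the 17.5% that fell. Differentiated keratinocytes are the cells in which the barrier enzymes are made, and 7 of 7 of their markers tested fell, with a median log2 difference of -1.96 and a summed level of 12082 to 19010 CPM in SA tumors against 50545 to 57371 in WT penises. The falls of Degs1, Cers3, Elovl1, Cyp4f39 and Pnpla1 (0.73 to 1.56 on the log2 scale) stood beside those of the markers, of which Krt1 fell by 1.63, Krt10 fell by 1.97 and Lor fell by 2.28. Other barrier genes did not pass the test, with log2 differences of 0.07 for Elovl4, 0.08 for Ugcg, -0.09 for Sptlc2, -0.18 for Abhd5 and -0.36 for Abca12. Degs2 went the other way and rose by 3.60. Of the 23 barrier genes outside the 37, 12 fell and 4 rose, among the latter Cers6 (2.47) and Lipn (2.32). Basal and general keratinocyte markers summed to 15748 to 17573 CPM in tumors and 29686 to 32692 in WT penises, and 4 of 8 fell while Epcam rose. The part of these differences in the lipid genes was not tested.

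Of 9 sebocyte markers, 6 were tested and 3 rose, Krt79 (7.00), Awat1 (5.49) and Soat1 (1.76), while Cidea, Mgst1 and Apoc1 did not pass the test (log2 differences of -0.26, -0.42 and -0.63 in that order). The summed level was 255 to 544 CPM in SA tumors and 77.5 to 102 in WT penises, most of it in tumors from Krt79, a keratin of the sebaceous duct and follicle opening, at 416, 455 and 168 CPM. Without Krt79, left out after its values were seen, the other 8 markers summed to 74.2, 88.2 and 87.4 CPM in the tumors and 98.1, 75.1 and 91.8 in the WT samples, so that the groups overlapped. Most of that rest was Apoc1, Mgst1 and Soat1, at 24.4 to 50.9, 17.3 to 32.5 and 6.37 to 30.5 CPM over the 6 samples. Awat1, Dgat2l6 and Mc5r added 2.22 CPM or less each in any sample. Awat1, a wax synthase, had 202 counts over the tumors and 2 over the WT samples, and passed the filter through its tumor counts only. Of the markers below the filter, Dgat2l6 had 94 counts in tumors and 0 in WT samples, and Mc5r 41 and 1. Among the sebocyte markers tested, the third tumor was lowest in Krt79, Awat1, Cidea and Apoc1 and highest in Soat1 and Mgst1. It was also lowest in Pparg and Scd1, while Elovl3 and Awat2 were lowest in the first tumor. The part of sebocytes in the rise of Elovl3, Pparg, Awat2 and Scd1 was not tested.

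Fabp4 is also a gene of fat, capillaries and macrophages. Of 9 adipocyte markers, the defining genes Adipoq, Plin1, Lep, Retn and Cidec did not pass the filter and stood at 0.106 CPM or less in every sample, Gpd1 rose and Pck1 fell. The list summed to 34.8 to 49.3 CPM in SA tumors and 46.9 to 54.2 in WT penises, most of it Lipe. Endothelial markers summed to 167 to 266 CPM in tumors and 291 to 375 in WT penises, and 3 of 7 fell and none rose. Macrophage markers summed to 122 to 293 CPM in tumors and 179 to 251 in WT penises, and 1 of 7, the scavenger receptor gene Msr1 (2.48), rose. The first tumor was lowest in the macrophage sum, at 122 CPM with 268 and 293 in the others. Fabp4 spread less, at 122, 132 and 125 CPM in the tumors in the same order. The tumor with the highest Fabp4 did not have the highest macrophage sum. The part of capillaries, macrophages and granulocytes in the rise of Fabp4 was not tested. Of the granulocyte markers, which summed to 1424 to 2485 CPM in tumors and 56.6 to 120 in WT penises, 5 of 5 rose. Smooth muscle markers fell in 6 of 6, with a median of -4.60. They summed to 35.3 to 124 CPM in tumors and 1517 to 2015 in WT penises, so that the WT samples held RNA of more than epithelium. Fibroblast markers summed to 1285, 3705 and 4763 CPM in the tumors and to 6073 to 6355 in WT penises, lower in every tumor and lowest in the first. Of these 6 markers Dcn fell and the others did not pass the test.

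**Figure D5:**
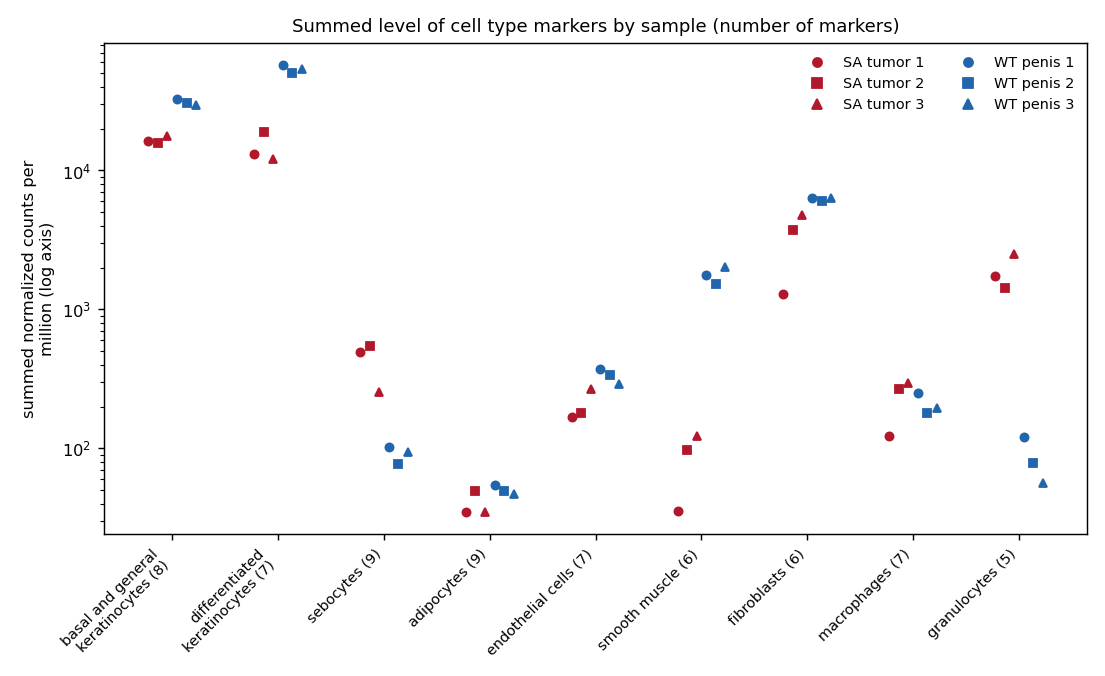
Summed normalized level (CPM), on a log axis, of the markers of 9 cell types (number of markers measured in parentheses) in each of 3 SA tumors (red) and 3 WT penises (blue). Differentiated keratinocyte markers are lower in every tumor (12082 to 19010 against 50545 to 57371) and the sebocyte sum is higher (255 to 544 against 77.5 to 102). Without Krt79 the sebocyte sums overlap, and most of that rest is Apoc1, Mgst1 and Soat1. Adipocyte and macrophage sums overlap between groups.

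RefSeq promoters of 300 bases were found for 28 of the 37 genes. Fa2h, Elovl3, Scd1, Scd2, Dgat1, Dgat2, Sqle, Fabp4 and Fabp5 had no entry. Motifs were searched on both strands, among 27025 genes with a promoter. The sterol response element of the classical form, TCACNCCAC, was in Acsl1 and Hmgcs1, 2 of 28 genes against 1.44% of all promoters, and in neither Srebf1 nor Srebf2. The CCAAT box was in 15 of 28 (41.1% of all promoters), the GC box GGGCGG in 18 (38.2%), and the E-box CACGTG in Degs1, Elovl4, Elovl5 and Plin2 (8.09%). CTTTGNNC, a short form of the TCF/LEF motif of beta-catenin target genes, was in 8 of 28 (19.3% of all promoters): Cers4 and Awat2, which rose, Elovl1, which fell, and Sptlc1, Sptlc3, Elovl4, Elovl6 and Hmgcs1, which did not pass the test. The AP-1 motif TGANTCA was in none of the 28 (8.97% of all promoters). These matches are descriptions of letters in a fixed window.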

How the data were processed

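RNA was read from both ends in stranded libraries. Per the methods of the study, TopHat placed reads on mm10 and HTSeq summarized them, and the authors deposited raw counts for 33068 RefSeq transcript rows. The FPKM and TPM values that the authors deposited were derived from the same counts, and served here only for transcript lengths and for ranks by TPM. A symbol was represented by its transcript row with the highest mean count, and reads that fit several rows of a gene are counted in each. No row lacked a symbol, and every column of counts was used.

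Counts were analyzed in R 4.3.3 with edgeR 4.0.16: filterByExpr (10 counts scaled to the median library in at least 3 samples, 15 in all), TMM, and robust quasi-likelihood F-tests with Benjamini-Hochberg adjustment over 16336 genes. The thresholds of the study were used, an adjusted p of 0.01 and a fold change of at least 4. On simulated data for this comparison, with 200 of the genes changed, edgeR recovered 52% of those changed by 1 and 84% of those changed by 2 on the log2 scale. It also called 9 genes that had not been changed. In the data 3283 genes rose and 2865 fell, many more than were changed in the simulation. The simulated shares therefore need not hold for the data. Ratios of related genes had 0.5 added to each count. Libraries of a group differed in every pair by more than counting noise (chi-square per degree of freedom 13.6 to 78.5).

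The text names all 37 genes, and of each pathway or cell type list at most 6 genes, those with the largest changes past the test or the highest levels. Further genes are named where a count of 5 or fewer calls is spelled out and, after their values were seen, where a step or marker is described (Aloxe3, Sdr9c7, Lipk, Lipm, Cpt1a, Scd4, neighbors of Fabp4, and sebocyte and adipocyte markers that were not tested or did not pass). The 37 genes and the lists were chosen with earlier results of these data known. Hacd3 and Adgre1 were found under older symbols, and values for Flg and Ly6g are not analyzed here. Some genes of the lists enter the counts and medians but are not reported here by name. Alternatives were DESeq2 1.42.0, limma-voom (limma 3.58.1), other scalings and filters, edgeR's glmTreat, a replicate block, summed or single transcript rows, thinning of the deepest library, and each library left out.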

Additional observations from a re-analysis of the deposited data

How the results depend on the processing

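Of the 20 lipid genes that rose or fell, 17 kept their direction and adjusted p under 0.01 in all 6 fits with 1 library left out. The exceptions were Awat2 (adjusted p up to 0.0340), Fabp5 (up to 0.0249) and Elovl7 (0.0116 without the second WT sample). Numbers of calls moved most in edgeR's glmTreat, which tests against a log2 fold change of 1: 5 lipid genes rose and 3 fell, and of the other pathway genes 4 rose and 4 fell. Scaling by library totals only raised the median of all genes from 0.03 to 0.31, with 5248 genes higher and 1806 lower, gave 13 lipid genes that rose and 8 that fell, and left 0 other pathway genes that fell at least 4-fold. Under it the log2 values of Sptlc2, Abhd5 and Sqle turned to 0.20, 0.11 and 0.25, and upper quartile scaling gave 0.024 for Sqle. With 1 library left out, values near 0 changed sign: Sptlc3 -0.12 to 0.13, Ugcg -9e-04 to 0.12, Elovl6 -0.051 to 0.074, Sqle -0.12 to 0.019, Srebf1 -0.17 to 0.16, and the log2 ratio of Sptlc3 to Sptlc2 -0.076 to 0.29. Summing transcript rows gave -5.62 for the log2 ratio of Degs1 to Degs2, and adding 3 counts gave 3.66 for Elovl3 to Elovl6.

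Samples with the same replicate number did not deviate together (correlations of -0.13, -0.10 and 0.02, and not every sample correlated best with its own number). The replicate number as a block left 9 lipid genes that rose and 10 that fell, with Awat2 lost (adjusted p = 0.0125) and Srebf1 at -0.0028. DESeq2 gave 12 and 12, adding Fa2h, Dgat1, Abca12 and Hmgcs1. For Elovl3, with 1 WT count, depth limits the size of the change, and the filter at a mean of 50 counts left it out. The causes of these differences were not tested.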

Other observations

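Fatty acid oxidation, the use of the same lipids as fuel, showed no common direction. Of 12 genes, Acads (1.52) and Cpt2 (0.88) rose, Acadm (-0.99) and Etfdh (-0.40) fell, and the median log2 difference was -0.16. That was 16.7% in each direction, near the 20.1% and 17.5% of all genes tested. Acads and Acadm encode dehydrogenases for short and medium chains. Acads was at 38.4, 39.5 and 30.3 CPM in SA tumors and at 14.5, 11.2 and 11.9 in WT samples, and Acadm at 49.7, 45.7 and 47.7 against 110, 88.9 and 85.3. The groups did not overlap for either gene. Cpt1a, which admits fatty acids to the mitochondrion, was at 130 ± 6.56 CPM in tumors and 138 ± 9.75 in the WT group.

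Neighboring genes of a family differed. The acid lipase genes Lipk (34008254 to 34047903), Lipn (34067058 to 34085946) and Lipm (34100943 to 34122687) lie side by side on chromosome 19 of GRCm38.p6, and are expressed in differentiating epidermis. Lipk fell by 1.28 and Lipm fell by 1.12 on the log2 scale, while Lipn between them rose by 2.32 from 58 counts over the WT samples. The stearoyl-CoA desaturases of the same chromosome all lay above 0, Scd3 at 2.22, Scd2 at 1.79, Scd1 at 1.51 and Scd4 at 0.87, of which Scd4 missed the threshold (edgeR adjusted p = 0.0431). Reads can be shared between close relatives of this family. On chromosome 3, Pmp2, Fabp9 and Fabp12, the genes beside Fabp4, did not pass the filter, with at most 0.609 CPM in any sample.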
